A study of Homo sapiens with 49 samples.

Results

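The genes of 4 steroid hormone receptors were examined for peaks of every target in 2 cell lines. They were ESR1 (estrogen receptor α), ESR2 (estrogen receptor β), PGR (progesterone receptor) and NR3C1 (glucocorticoid receptor), and were taken as named genes, 4 of 19794 protein-coding genes of the GENCODE annotation. Each gene was read with 50 kb on each side. Over 45 peak lists, 571 peaks fell at these genes.

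The study asked how regulatory regions shape the estrogen response, and used chromatin immunoprecipitation with sequencing (ChIP-seq) to place proteins and histone marks on the genome. Ishikawa is a human endometrial adenocarcinoma line and T-47D a human breast carcinoma line, so every list stands for 1 established line. In both lines, lists compared estradiol (E2) at 10 nM with the vehicle DMSO, after 1 h for proteins and 8 h for histone marks. SIN3A was instead compared between hormone-stripped and full media, and H3K36me3 was held by a single Ishikawa list from full media. RNA polymerase II (RNAPII) was mapped in T-47D alone, with 2 libraries per treatment, and every other group was 1 library. A difference between 2 lists of those other targets therefore has no replicate check and no p-value. The other targets were H3K4me3, a mark of promoters, H3K4me1, a mark of enhancers and promoter edges, H3K27me3, a mark of Polycomb repression, TAF1, a subunit of the general transcription factor TFIID, JUN, a subunit of AP-1, LSD1, a histone demethylase, the corepressor SIN3A, the E-box factors MAX and MYC, and the retinoic acid receptor RARA.

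Steroid receptors are transcription factors that bind a hormone, enter or stay in the nucleus, and attach to DNA as dimers at palindromic response elements or through partners such as AP-1. ESR1 is the main receptor for E2 in endometrial and luminal breast epithelium, ESR2 its paralog with a narrower expression range, and PGR a textbook E2-induced gene of both tissues. NR3C1 is made in most cell types and binds glucocorticoids.

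The lists were of very unequal length, from 2 to 46282 peaks, and 13 of 45 held no peak at any of the 4 genes. Counts below therefore stand beside the share of all 19794 genes that the same list or pair of lists calls, where it was computed. The sequencing depth was not given by the lists and is unknown. The lines were set against markers by H3K4me3 at start sites. The epithelial genes KRT8, EPCAM and CDH1, and TFAP2C, carried it in both lines, and KRT18 in Ishikawa alone. The luminal breast genes GATA3 and SPDEF carried it in T-47D under both treatments, where Ishikawa had GATA3 under E2 alone and no SPDEF. PAX8 and EMX2, of Müllerian epithelium, carried it in Ishikawa alone, and 0 of 4 stromal and blood genes (DCN, COL1A2, PTPRC, CD3E) in any list.

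**Figure D1:**
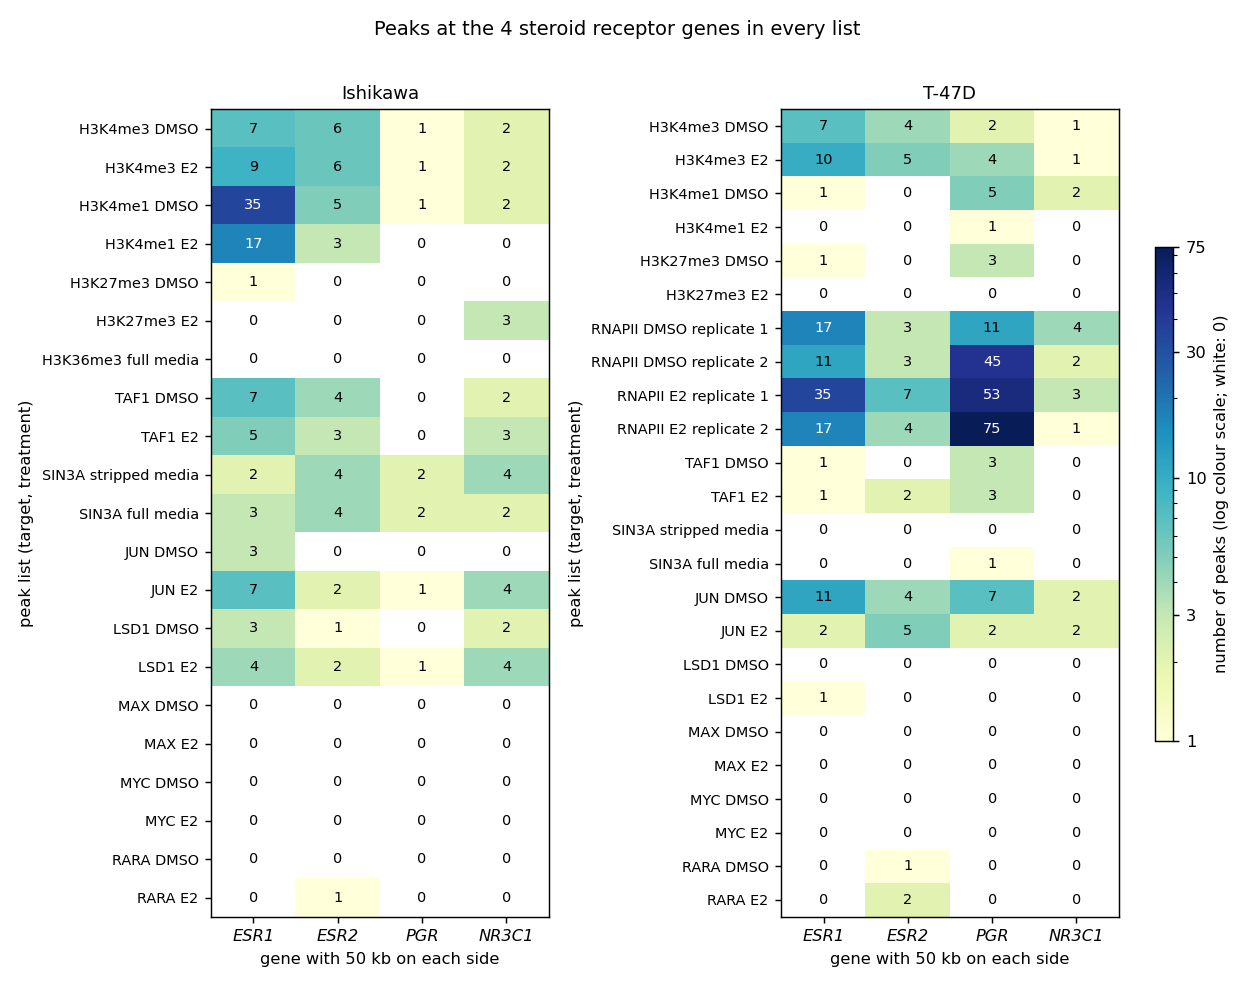
Number of peaks at each gene with 50 kb on each side (columns), in each list (rows), with Ishikawa on the left and T-47D on the right; the colour scale is logarithmic and white cells hold 0. The highest number in the T-47D panel is 75, of RNAPII at PGR under E2, and in the Ishikawa panel 35, of H3K4me1 at ESR1 under DMSO.

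The genes differ in size and in their neighbours. On GRCh37, the hg19 build of the files, ESR1 lies at chr6:151977826-152450754 on the plus strand and spans 473 kb. ESR2 lies at chr14:64550950-64804830 on the minus strand and spans 254 kb. PGR lies at chr11:100900355-101000544 on the minus strand and spans 100.2 kb. NR3C1 lies at chr5:142657496-142815077 on the minus strand and spans 158 kb. The annotation gives 8 distinct starts of coding transcripts for ESR1, 6 for ESR2, 4 for PGR and 13 for NR3C1. Positions within a gene are given as kb from its annotated 5′ end, along transcription. The windows also hold other genes, among them CCDC170 before ESR1 and SYNE1 at its end, SYNE2 within and TEX21P and MTHFD1 before ESR2, the antisense PGR-AS1 across the PGR start, and ARHGAP26 beyond NR3C1. Peaks at these cannot be told apart from peaks of the receptor gene where they overlap.

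To show the sites away from exons that carried the most lists at each gene, 200 bases around the summit of the strongest protein peak are printed on the plus strand of GRCh37. Capitals mark matches to AP-1 (TGANTCA), an estrogen response element (GGTCANNNTGACC), a glucocorticoid and progesterone response element (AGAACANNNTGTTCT), the nuclear receptor hexamer AGGTCA or an E-box (CACGTG), on either strand. The hexamer shares letters with the estrogen element.
ESR1 intron, 24.5 kb (chr6:152002269-152002468): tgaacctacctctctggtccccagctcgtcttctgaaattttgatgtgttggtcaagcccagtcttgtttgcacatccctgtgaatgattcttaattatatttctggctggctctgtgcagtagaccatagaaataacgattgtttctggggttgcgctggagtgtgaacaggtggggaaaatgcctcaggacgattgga
ESR1 intron, 12.3 kb (chr6:151990061-151990260): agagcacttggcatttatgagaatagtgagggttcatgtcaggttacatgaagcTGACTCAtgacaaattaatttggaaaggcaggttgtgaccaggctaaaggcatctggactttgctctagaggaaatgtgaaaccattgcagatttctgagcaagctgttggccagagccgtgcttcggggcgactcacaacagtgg
before ESR2, 0.9 kb (chr14:64805636-64805835): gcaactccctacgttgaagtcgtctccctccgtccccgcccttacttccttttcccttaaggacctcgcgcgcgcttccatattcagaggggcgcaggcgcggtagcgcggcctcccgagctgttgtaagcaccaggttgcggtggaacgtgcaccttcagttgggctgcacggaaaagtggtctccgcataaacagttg
PGR intron, 49.8 kb (chr11:100950686-100950885): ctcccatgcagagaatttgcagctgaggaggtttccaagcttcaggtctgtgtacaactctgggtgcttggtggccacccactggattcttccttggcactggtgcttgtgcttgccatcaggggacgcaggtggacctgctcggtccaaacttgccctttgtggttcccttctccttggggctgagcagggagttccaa
beyond NR3C1, 189 kb (chr5:142625703-142625902): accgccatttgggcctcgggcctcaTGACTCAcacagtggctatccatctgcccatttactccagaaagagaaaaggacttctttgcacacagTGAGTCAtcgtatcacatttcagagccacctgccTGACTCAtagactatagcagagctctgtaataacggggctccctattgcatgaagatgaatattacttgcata
The ESR1 intron site at 24.5 kb and the PGR intron site at 49.8 kb held none of these letters, nor did the site before ESR2. The ESR1 intron site at 12.3 kb held an AP-1 match, and the site beyond the 3′ end of NR3C1 held 3. Over all JUN lists, 8.25% of 75667 such windows held an AP-1 match, and of the 52 JUN windows at the 4 genes 5 did. The lines differed, with 22.7% under DMSO and 17.1% under E2 in Ishikawa, and 4.95% and 3.38% in T-47D. At the genes it was 0 of 3 and 4 of 14 in Ishikawa, and 1 of 24 and 0 of 11 in T-47D. For LSD1 the share over all lists was 10.1% of 27486 windows, and 2 of 18 at the genes. The estrogen element was in 0.190% of all JUN windows and in 0 of 52 at the genes. It was likewise in 0 of 291 RNAPII windows at the genes, against 0.171% of 130377 windows of the RNAPII lists. AP-1 matches were in 28 of 291 RNAPII windows at the genes and in 5.49% of all, with the same stretches counted again where several libraries had a peak. A match is a description of the letters and does not show a bound site.

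H3K4me3 was found at a start site of all 4 genes in all 4 lists, that is, in both lines and under both treatments. The same held for 66.5% and 67.4% of all genes in Ishikawa under DMSO and E2, and for 61% and 57.6% in T-47D. Beyond this mark the genes differed in how many lists held a start peak, meaning a peak within 250 bp of a coding start. ESR1 had a start peak in 10 of 21 Ishikawa lists and 9 of 24 T-47D lists, ESR2 in 7 and 6, PGR in 5 and 12, and NR3C1 in 10 and 6. The median over all protein-coding genes was 6 and 7. PGR was thus below the median in Ishikawa and above it in T-47D, and NR3C1 the reverse.

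At ESR1 the lists with a peak within 250 bp of a start differed between the 2 lines. The start at 148 kb (152125566 on chromosome 6) carried peaks of 9 Ishikawa lists and of no T-47D list within that distance. Those 9 were H3K4me3 under DMSO, H3K4me1, TAF1, JUN and LSD1 under both treatments. The 4 starts from 150.5 kb to 151 kb carried peaks in both lines, 6 Ishikawa and 9 T-47D lists, the latter including all 4 RNAPII libraries. A further start at 152 kb was held by 4 and 6 lists. The starts at 33.8 kb and 224 kb had no peak in any list.

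The merged site around the first of these, chr6:152124679-152127129, was the one held by the most lists at ESR1, with 12 Ishikawa and 3 T-47D lists, RNAPII apart. The 3 T-47D lists were H3K4me3 under both treatments and JUN under DMSO. All 4 RNAPII libraries of T-47D also had a peak at this site, so T-47D peaks lay close to that start. RNAPII apart, the strongest peak of the site was JUN in E2-treated Ishikawa cells, with a fold enrichment of 30.9. Fold enrichment is the pileup of ChIP reads over the local background at the summit, as the authors deposited it. The next site, chr6:152001587-152003163, lay in an intron at 24.5 kb and is the ESR1 intron site printed above at that distance. It was held by 13 Ishikawa lists, of H3K4me3, H3K4me1, TAF1, SIN3A, JUN and LSD1 in both conditions and of H3K27me3 under DMSO. In T-47D it was held by 2 RNAPII libraries and no other list. JUN there had a fold enrichment of 14.1 under DMSO and 31.1 under E2, and LSD1 reached 20.3 under E2. These are single lists, so the higher JUN value under E2 has no replicate check. The site at 12.3 kb, with its AP-1 match, was held by 6 Ishikawa lists and, in T-47D, by 3 RNAPII libraries alone. The site chr6:151987453-151987936, at 9.87 kb, was the reverse, with 4 T-47D lists beside all 4 RNAPII libraries, and no Ishikawa list.

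H3K4me1 peaks were numerous at ESR1 in Ishikawa. In Ishikawa cells ESR1 held 35 H3K4me1 peaks under DMSO and 17 under E2, and in T-47D cells 1 and 0. At least 35 peaks were found at 0.242% of all genes in the same list, a share that takes no account of gene length. With its flanks ESR1 spans 573 kb. Per length the DMSO list of Ishikawa held 6.11 peaks per 100 kb at ESR1, against 1.41 at ESR2, 0.50 at PGR and 0.776 at NR3C1. The number per length was not computed for all genes. Of the 35 peaks 33 lay in the gene body away from starts. A start of ESR1 held H3K4me1 under DMSO as well, which was so for 5.92% of all genes, and none of the other 3 genes had it. With E2 all 4 genes had fewer H3K4me1 peaks in Ishikawa, as did 31.8% of all genes. ESR2 went from 5 to 3, PGR from 1 to 0 and NR3C1 from 2 to 0. Of the 17 peaks at ESR1 under E2, 15 overlapped a peak found under DMSO. When the lists were shortened to equal length by p-value, ESR1 held 21 and 17. In T-47D, 3 of 4 genes had fewer H3K4me1 peaks with E2, as did 23% of all genes, and PGR went from 5 to 1. That list of T-47D cells was short, with 6408 peaks under DMSO and 1960 under E2. Shortened to 1960 peaks each, the T-47D lists gave PGR 1 and 1, so the fall there was not seen at equal length.

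Between the lines under DMSO, PGR had more H3K4me1 peaks in T-47D than in Ishikawa, a direction seen at 7.19% of all genes. ESR1 and ESR2 had fewer, as did 50.1% of all genes. The 5 peaks at PGR were spread over the gene and its 3′ flank, and that at 49.7 kb, with a fold enrichment of 8.64, overlapped the PGR intron site printed above.

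**Figure D2:**
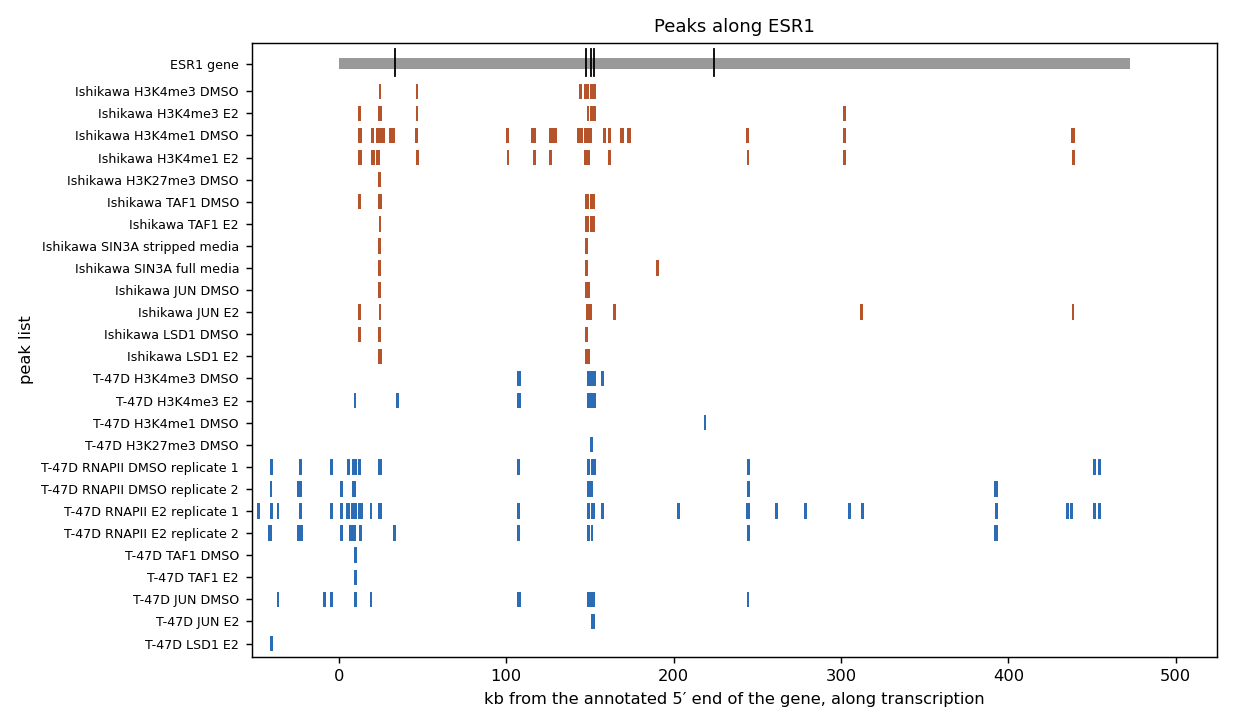
Peaks along ESR1 with 50 kb on each side, by list, with Ishikawa in brown and T-47D in blue; the x axis is distance from the annotated 5′ end in kb, the grey bar is the gene, black ticks are the groups of coding starts, and narrow peaks are widened to stay visible. The column at 24.5 kb is filled by 13 Ishikawa lists and, in T-47D, by 2 RNAPII libraries alone.

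The general transcription factor TAF1 separated PGR from the other genes. In Ishikawa it lay at a start of ESR1, ESR2 and NR3C1 under DMSO and E2, as at 58.9% and 54.9% of all genes, and PGR had no TAF1 peak in either list. In T-47D, PGR was the gene with TAF1 at a start, under DMSO (22.6% of all genes) and under E2 (27.4%). Under DMSO PGR held 3 TAF1 peaks in T-47D and 0 in Ishikawa, a direction shared by 1.42% of all genes, since 69.6% went the other way, ESR1, ESR2 and NR3C1 among them. The T-47D peaks at PGR had fold enrichments from 6.0 to 7.45 under DMSO and at most 8.58 under E2, where the medians of those lists were 6.57 and 7.49. At equal list length PGR held 3 and 1. In Ishikawa, with a list median of 14.1 under DMSO, the strongest TAF1 peaks were 26.4 at ESR1, 23.9 before ESR2 and 25.9 at NR3C1. With E2 in Ishikawa, TAF1 peaks went from 7 to 5 at ESR1 and from 4 to 3 at ESR2, in the direction of 29.7% of all genes. They went from 2 to 3 at NR3C1, in the direction of 8.26%. In T-47D, TAF1 went from 0 to 2 at ESR2, as at 19.4% of all genes, and both peaks lay outside the gene, one of them at the MTHFD1 start.

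The corepressor SIN3A was at a start of ESR2, PGR and NR3C1 in Ishikawa under stripped and full media (58.4% and 49.5% of all genes). At ESR1 no SIN3A peak lay within 250 bp of a coding start. Both lists had a peak just outside that distance from the start at 148 kb. It was chr6:152125820-152126107 under stripped and chr6:152125827-152126076 under full media. Both lists also had a peak at the intron site at 24.5 kb. With start windows of 1000 bp, ESR1 had a start peak in 12 rather than 10 Ishikawa lists. At the PGR start in Ishikawa SIN3A had a peak, with a fold enrichment of 13.4 under stripped media, where TAF1 had none. The T-47D lists were short, and the 649 peaks of full media included a start peak at PGR alone, with a fold enrichment of 7.61 (3.18% of all genes).

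H3K27me3 was seen at NR3C1 and PGR in 1 list each with several peaks. In Ishikawa under E2 it lay at a start of NR3C1, with 3 peaks of fold enrichment 9.18 to 12.3, and 24.5% of all genes had such a start peak. No H3K27me3 peak was at NR3C1 under DMSO, and 47.5% of all genes gained peaks in that pair of lists, which held 2199 and 6992 peaks. At equal length NR3C1 held none in either. In T-47D under DMSO it lay at a start of ESR1 and PGR (21.8% of all genes), with 3 peaks at PGR of fold enrichment 8.71 to 9.25. The E2 list of T-47D had 107 peaks and none at the 4 genes, and 47.9% of all genes had fewer peaks there, ESR1 and PGR among them. At both genes the same starts carried H3K4me3 and all 4 RNAPII libraries in that line. Whether the marks lie in the same cells cannot be told from these lists. The same T-47D DMSO list had start peaks at 6 of 7 chaperone genes of the receptors and 2 of 8 coregulator genes. The Ishikawa E2 list had them at 6 of 7 and 3 of 8. All 7 chaperone genes had start peaks in all 4 RNAPII libraries. Whether these H3K27me3 peaks go with repression was not tested.

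JUN followed opposite courses at ESR1 in the 2 lines. In Ishikawa, ESR1 held 3 JUN peaks under DMSO and 7 under E2. In T-47D it held 11 under DMSO and 2 under E2. PGR went from 0 to 1 in Ishikawa and from 7 to 2 in T-47D. In Ishikawa all 4 genes had more JUN peaks with E2, as did 65.4% of all genes, and the list grew from 3768 to 18311 peaks. Shortened to 3768 peaks each, the Ishikawa lists gave 3 and 2 peaks at ESR1 and none at the other genes, so the gain was not seen at equal length. In T-47D the fall at ESR1 and PGR was in the direction of 34.6% of all genes, while ESR2 went from 4 to 5, in the direction of 18.3%. Shortened to equal length, the T-47D lists still gave 10 and 2 peaks at ESR1 and 7 and 2 at PGR.

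The JUN peaks that T-47D cells held under DMSO alone were away from the starts. At ESR1 they included the strongest JUN peak of the gene, chr6:152222140-152222605 in an intron at 245 kb, with a fold enrichment of 33.3. At PGR they included chr11:100904825-100905217 in the 3′ end of the gene at 95.5 kb, with a fold enrichment of 18.2, and the intron site at 49.8 kb, with 12.0. The peaks kept under E2 lay at the starts, with fold enrichments up to 20.6 at ESR1 and 23.4 at PGR. JUN start peaks in T-47D were present at all 4 genes under DMSO and E2, as at 56.6% and 59.5% of all genes. In Ishikawa the start share was 3.58% of all genes under DMSO, with ESR1 included, and 31.2% under E2, with ESR1 and NR3C1. Under DMSO all 4 genes had more JUN peaks in T-47D than in Ishikawa, as did 78.1% of all genes. These DMSO lists were not alike in their letters, with AP-1 matches in 4.95% of windows in T-47D and 22.7% in Ishikawa. All 7 JUN peaks at PGR under DMSO overlapped a peak of RNAPII E2 replicate 1, 4 overlapped one of DMSO replicate 1, 1 of DMSO replicate 2 and 4 of E2 replicate 2. At ESR1, 7, 4, 9 and 5 of 11 overlapped RNAPII in DMSO replicates 1 and 2 and E2 replicates 1 and 2. The share of all T-47D JUN peaks that overlap RNAPII was not computed, so these overlaps are not shown to be particular to the 2 genes.

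LSD1 was read in Ishikawa, since the T-47D lists held 42 and 442 peaks and gave 1 peak at the 4 genes, 40.4 kb before ESR1. In Ishikawa it lay at a start of ESR1 and NR3C1 under DMSO (15.7% of all genes) and of all 4 genes under E2 (39.1%). All 4 genes had more LSD1 peaks with E2, as did 60% of all genes, and the list grew from 8618 to 18384 peaks. ESR1 went from 3 to 4, ESR2 from 1 to 2, PGR from 0 to 1 and NR3C1 from 2 to 4. At equal length the direction turned at ESR1, with 3 and 1, and at ESR2, with 1 and 0, PGR held none, and NR3C1 had more, 2 and 3.

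MAX and MYC had no peak at any of the 4 genes in any of their 8 lists. Their longest lists had a start peak at 9.48% of all genes (MAX, Ishikawa, DMSO), 6.87% (MAX, T-47D, E2) and 7.05% (MYC, T-47D, E2). RARA had no start peak at the 4 genes either, against 8.39% of all genes in its longest list, that of E2-treated Ishikawa cells. Its 4 peaks in the windows were all before ESR2, at the MTHFD1 start in E2-treated cells of both lines and at the site 0.7 kb before ESR2 in T-47D under both treatments, with fold enrichments of 9.06 and 7.09. H3K36me3 had no peak at the genes in its list of 114.

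RNAPII in T-47D was the target with replicates, and PGR was the gene at which its peaks were densest. Per length PGR held 5.49 and 22.5 peaks per 100 kb under DMSO and 26.5 and 37.5 under E2, where ESR1 held 2.97 and 1.92, and 6.11 and 2.97. The labels do not say whether the libraries came from separate cultures, so p-values here measure only the spread between these libraries. PGR held 11 and 45 RNAPII peaks in the DMSO libraries (replicates 1 and 2) and 53 and 75 in the E2 libraries. Both E2 libraries lay above both DMSO libraries, although the DMSO libraries differed from each other more than DMSO replicate 2 differed from E2 replicate 1. The mean was 28 ± 24.0 (SD, n = 2) under DMSO and 64 ± 15.6 (SD, n = 2) under E2, a difference of 1.45 on the log2(number + 1) scale. The exact two-sided permutation test over the 6 assignments of 4 libraries gave p = 0.333, the smallest it can give with 2 libraries against 2. Without DMSO replicate 1 the difference was 0.48, and without DMSO replicate 2 it was 2.42. As many or more peaks were found at 20.1%, 0.0556%, 0.450% and 0.0303% of all genes in the 4 libraries in that order. By number of peaks PGR was thus near the upper end of all genes in each library but DMSO replicate 1. These shares take no account of gene length, and the number per length was not computed for all genes.

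The peaks covered 5.97 and 17.3 kb under DMSO and 20.3 and 71.0 kb under E2. Within the PGR body this was 5.11% and 15.3% of the length under DMSO and 18.5% and 64.0% under E2. Stronger peaks were further apart. At a fold enrichment of 10 or more, PGR held 2 and 4 peaks under DMSO and 34 and 36 under E2. By contrast, when all 4 lists were shortened to 21291 peaks by p-value, PGR held 2 and 45 under DMSO and 36 and 72 under E2, so that the groups overlapped.

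ESR1 held 17 and 11 RNAPII peaks under DMSO and 35 and 17 under E2. The E2 and DMSO libraries met at 17, and the difference of 0.79 on the log2 scale gave p = 0.667 in the exact permutation test. Within each replicate number the E2 library held more. By covered length the groups did not overlap, with 7.31 and 4.16 kb under DMSO and 10.8 and 8.22 kb under E2 (exact permutation p = 0.333). At a fold enrichment of 10 or more ESR1 held 7 and 8 peaks under DMSO and 21 and 9 under E2. Without E2 replicate 1 the difference in all peaks was 0.29, and without E2 replicate 2 it was 1.29. ESR2 held 3 and 3 peaks under DMSO and 7 and 4 under E2, a difference of 0.66 (exact permutation p = 0.333), and in each library 2 or 3 of these peaks lay at starts of other genes. Without E2 replicate 1 its difference was 0.32, and without E2 replicate 2 it was 1.00. Its covered length overlapped between treatments, 2.82 and 1.03 kb against 3.82 and 1.78 kb. NR3C1 held 4 and 2 peaks under DMSO and 3 and 1 under E2, a difference of -0.45 (exact permutation p = 0.667), and the groups overlapped. Without E2 replicate 2 this difference was 0.05. At equal list length NR3C1 held 2 and 2 under DMSO and 0 and 1 under E2, a difference of -1.08 (exact permutation p = 0.333). By covered length, 2.50 and 0.567 kb against 0.622 and 0.206 kb, it was -1.73 (exact permutation p = 0.667). How many of all genes are separated in this way at equal list length was not computed.

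Both E2 libraries held more peaks than both DMSO libraries at 4.23% of all genes, and PGR and ESR2 were among them. Both held fewer at 0.733% of all genes, with none of the 4 receptor genes. By covered length the shares were 1.72% higher, with PGR and ESR1, and 4.1% lower, with none. Counting stronger peaks alone, at a fold enrichment of 10 or more, they were 2.24% higher, with ESR1, ESR2 and PGR, and 0.369% lower, with none. These memberships changed with the setting. With the gene body alone ESR2 held 2 and 0 peaks under DMSO and 5 and 1 under E2, so its groups overlapped (exact permutation p = 0.667). At equal list length PGR overlapped, as given above, ESR1 held 6 and 11 against 11 and 13, and ESR2 held 3 and 3 against 6 and 4. No share of all genes stands beside the equal-length numbers.

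**Figure D3:**
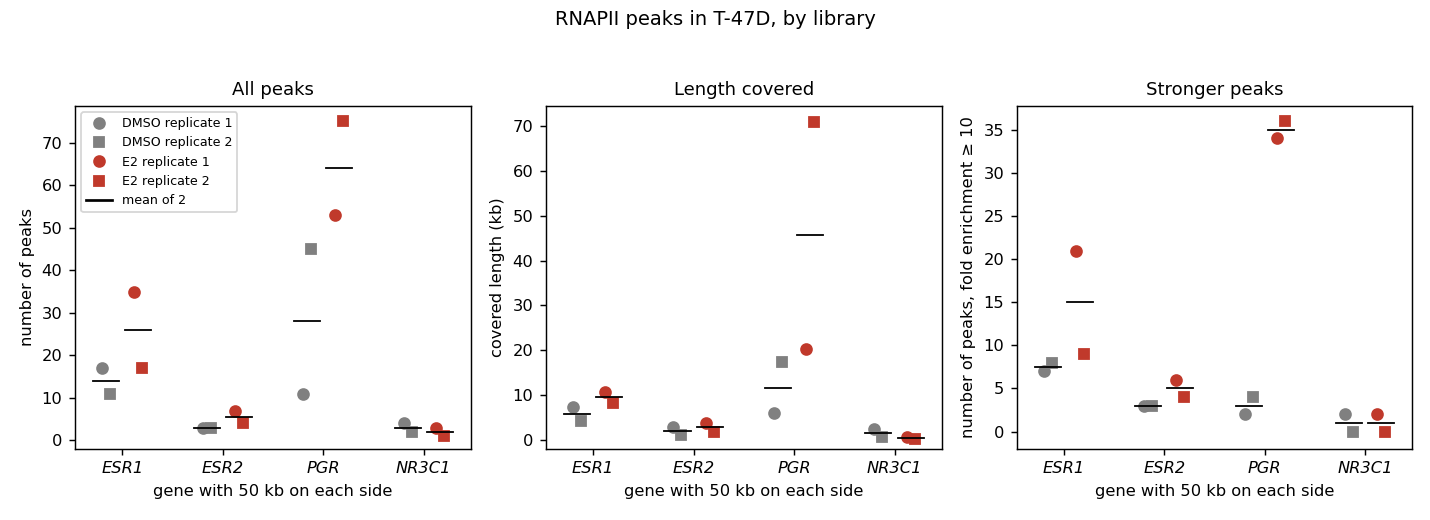
RNAPII in T-47D at each gene with 50 kb on each side: number of peaks (left), covered length in kb (middle) and number of peaks at a fold enrichment of 10 or more (right). Points are libraries (grey DMSO, red E2, circles replicate 1, squares replicate 2) and lines are means of 2; at PGR the stronger peaks number 2 and 4 under DMSO and 34 and 36 under E2.

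A region was called gained where both E2 libraries had a peak and neither DMSO library did. PGR had 11 such regions, ESR1 had 1, and ESR2 and NR3C1 had none. At least 1 gained region was found at 4.29% of all genes and at least 11 at 0.0758%, which was 15 genes. The reverse, a region in both DMSO libraries and neither E2 library, was found at none of the 4 genes. The strongest gained region of PGR was chr11:100965120-100965772, in an intron at 35.1 kb, with fold enrichments of 13.0 and 20.1 in E2 replicates 1 and 2. The next was chr11:100933170-100934847 at 66.5 kb, in a noncoding exon, with 12.9 and 8.80. All 11 lay within the gene, between 16.0 and 86.9 kb from its 5′ end. RNAPII peaks covered 64.0% of that gene body in E2 replicate 2, so these regions are not independent of each other. Gained regions were called from the full lists of unequal length and were not called at equal list length. At ESR1 the gained region was chr6:151985392-151985813, in an intron at 7.78 kb, with 13.5 and 9.58.

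**Figure D4:**
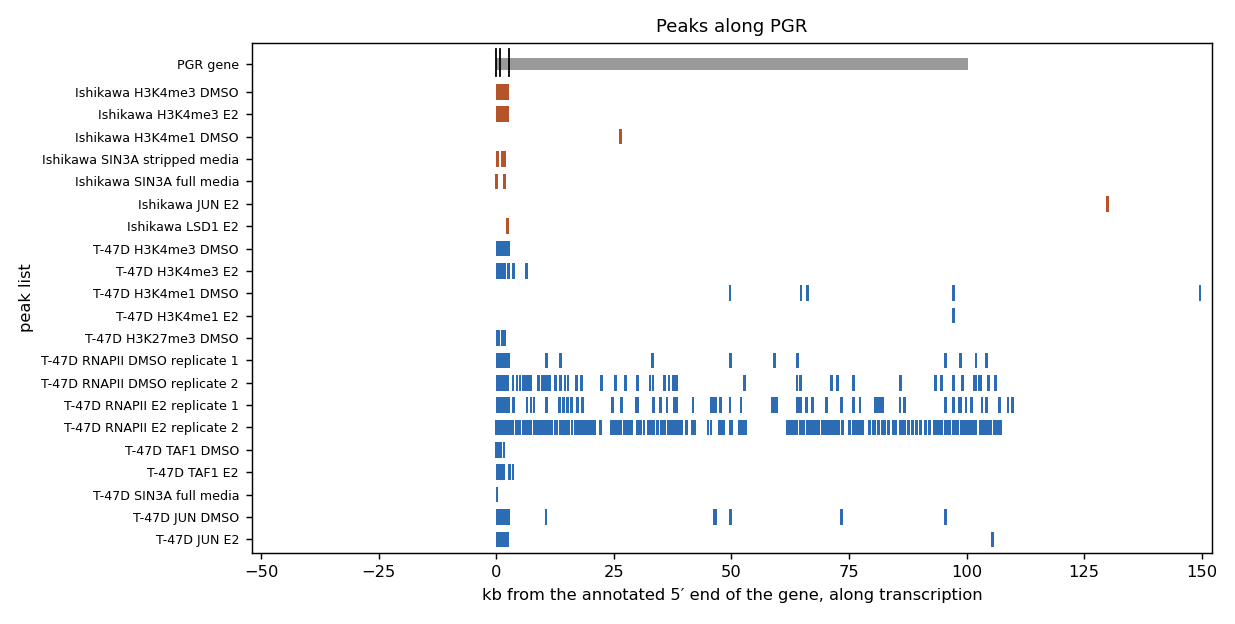
Peaks along PGR with 50 kb on each side, by list, drawn as in the plot of ESR1. RNAPII peaks are spread along the gene in E2 replicate 2, where they cover 64.0% of the body, and in Ishikawa the peaks away from the start region number 2.

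RNAPII start peaks separated the replicate numbers rather than the treatments. In replicate 1 all 4 genes had a start peak, under DMSO (63.2% of all genes) and under E2 (58.7%). In replicate 2 only ESR1 and PGR did, under DMSO (45.6%) and under E2 (50.8%). The replicate 1 lists were the longer, 39371 and 46282 peaks against 21291 and 23433. At NR3C1 the replicate 1 libraries had 3 start peaks each, the strongest with a fold enrichment of 30.2 under DMSO and 12.9 under E2, and the replicate 2 libraries had none. The RNAPII peak shared by most libraries at NR3C1 lay in an intron near 17.3 kb, in DMSO replicates 1 and 2 and in E2 replicate 2, with fold enrichments of 6.18, 8.28 and 7.66. The strongest RNAPII peak at ESR1 was at the starts, 65.4 in DMSO replicate 1, and at PGR it was also there, 53.9 in DMSO replicate 1.

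NR3C1 had its peaks at a compact start region, chr5:142782360-142785544, about 30 to 33 kb from the annotated 5′ end. The far upstream starts, at 0 and 0.81 kb, had no peak in any list. The region was held by 10 Ishikawa lists and, in T-47D, by 3 lists and 2 RNAPII libraries. H3K4me3 there reached fold enrichments of 28.9 under DMSO and 42.5 under E2 in Ishikawa, over 3.04 and 3.13 kb. In T-47D it was 6.79 under DMSO over 0.181 kb and, just beside the region at 33.1 kb, 7.38 under E2 over 0.351 kb. Neither T-47D list had TAF1 at NR3C1. The other NR3C1 site with several lists was the Ishikawa site beyond the 3′ end printed above, chr5:142625604-142626164, 189 kb from the 5′ end. It held H3K4me1 under DMSO, LSD1 under both treatments (14.5 and 10.6) and JUN under E2 (14.6), and no T-47D peak.

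Of the 11 ESR2 sites, 5 were held by both lines, and those with the most lists lay near other genes. The site held by the most lists, chr14:64805417-64806166, lay about 1 kb before ESR2, at the start of the gene ENSG00000214770, and was held by 7 lists of each line. The next was the MTHFD1 start, at the edge of the window. The ESR2 start itself, chr14:64804491-64805385, was held by 7 Ishikawa and 4 T-47D lists. Starts at 43.7 kb had H3K4me3 in both lines, those at 55.0 kb had no peak. The intron site at 245 kb was held by 6 Ishikawa lists and by H3K4me3 under E2 in T-47D. A site over a coding exon at 103 kb was held in T-47D by JUN, with fold enrichments of 17.1 under DMSO and 9.31 under E2, and by RNAPII in every library but DMSO replicate 2. RNAPII there reached 30.8 in E2 replicate 1.

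**Figure D5:**
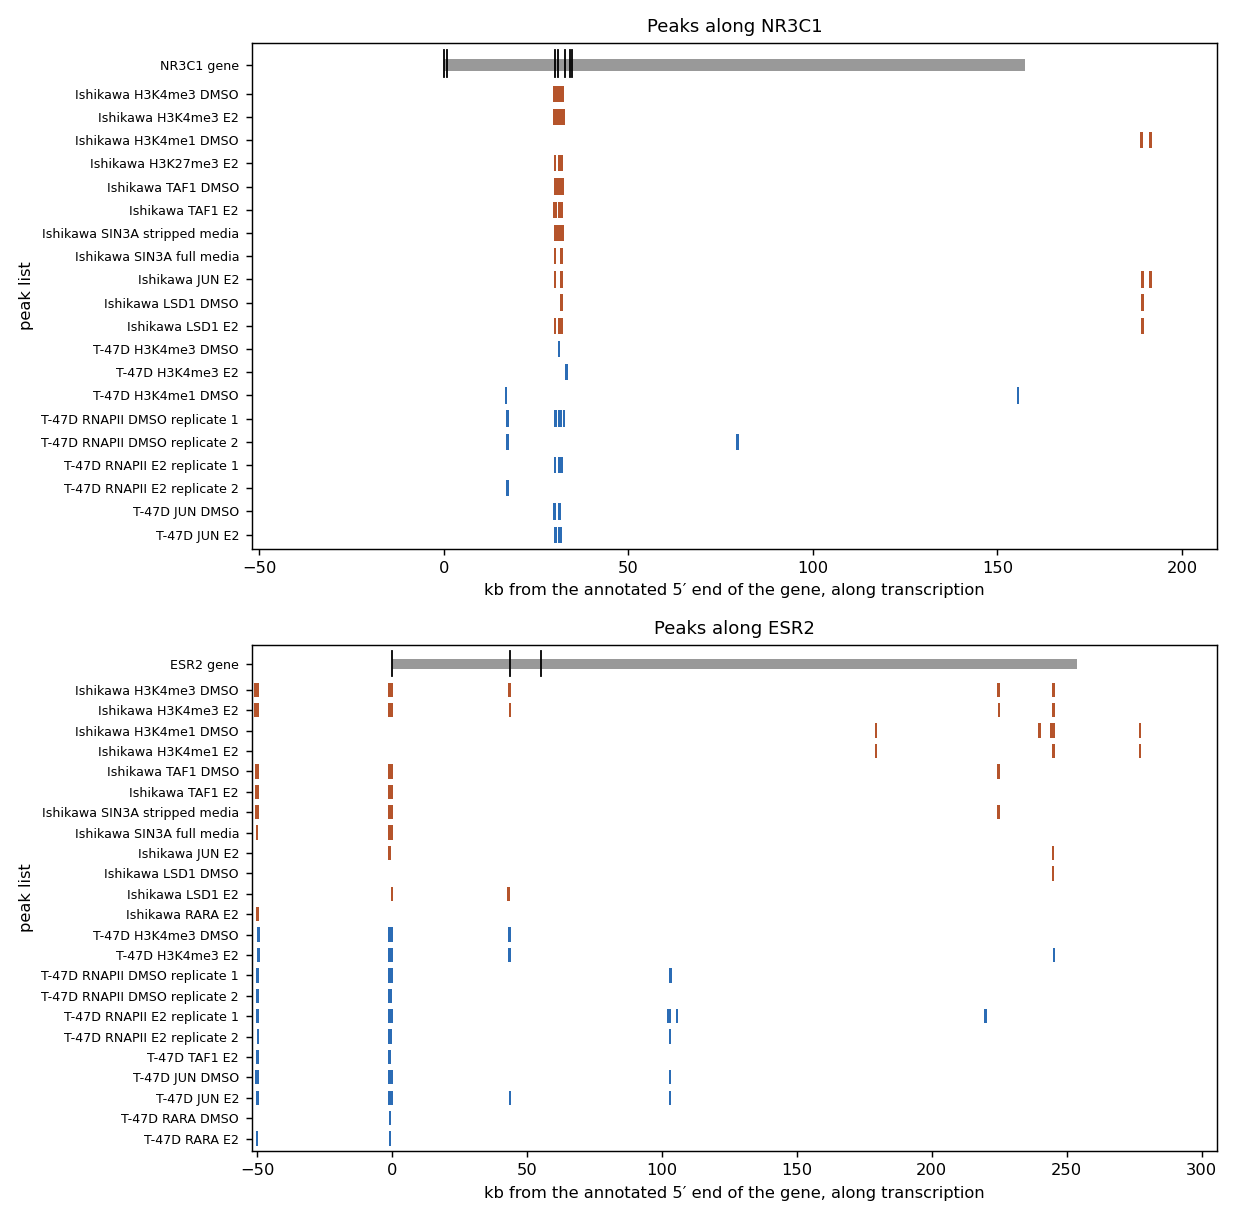
Peaks along NR3C1 (top) and ESR2 (bottom) with 50 kb on each side, by list, drawn as in the plot of ESR1. At NR3C1, 36 of 48 peaks fall at the starts near 30 to 33 kb and 12 elsewhere, and at ESR2 they gather at the start and at the MTHFD1 start 50 kb before it.

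Over the 9 Ishikawa targets read under DMSO and E2, ESR1 had more peaks under E2 for 3 and fewer for 3. The numbers were 3 and 2 at ESR2, 2 and 1 at PGR, and 4 and 1 at NR3C1. Over the 10 T-47D targets, with the mean taken for RNAPII, they were 3 and 3 at ESR1, 5 and 0 at ESR2, 2 and 3 at PGR, and 0 and 2 at NR3C1. Between the lines, PGR had more peaks in T-47D for 5 of 10 targets and fewer for 1, and the other 3 genes had more for 1 or 2 and fewer for 4 or 5. These tallies were not computed for all genes, so they are not shown to be particular to the receptor genes. Single targets leaned strongly over all genes. T-47D had fewer peaks at 80.5% of all genes for SIN3A and 69.6% for TAF1, and more at 78.1% for JUN.

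Merging overlapping peaks of all lists other than RNAPII gave 48 sites at ESR1, 11 at ESR2, 16 at PGR and 6 at NR3C1. At ESR1, 34 sites were held by Ishikawa alone, 10 by T-47D alone and 4 by both. At PGR the order was turned, with 2, 13 and 1. ESR2 had 5, 1 and 5, and NR3C1 had 2, 3 and 1. Of these, 30 sites at ESR1 and 12 at PGR rested on a single list. Most of the Ishikawa-only sites at ESR1 had H3K4me1 and no other target. The H3K4me1 lists held 28411 and 22553 peaks in Ishikawa under DMSO and E2, and 6408 and 1960 in T-47D. This split between the lines was not computed for all genes. For T-47D H3K4me3 with E2, 3 of 4 genes had more peaks, ESR1 from 7 to 10, ESR2 from 4 to 5 and PGR from 2 to 4, as did 22.2% of all genes.

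Other genes of the pathway gave a frame for these numbers. NR3C2, the mineralocorticoid receptor, had a start peak in 9 Ishikawa and 11 T-47D lists. The orphan receptors ESRRA, ESRRB and ESRRG had 7 and 8, 2 and 4, and 1 and 3. The 7 chaperones of the receptors ranged from 7 to 14 Ishikawa and 9 to 15 T-47D lists, and the 8 coregulators from 4 to 14 and 6 to 14. Among these 15 chaperones and coregulators, both RNAPII E2 libraries held more peaks than both DMSO libraries at FKBP4 and NRIP1, 2 of 15 against the 4.23% of all genes given above, and fewer at none. NRIP1, a corepressor and known E2 target, went from 2 and 2 to 6 and 5. FKBP4, an HSP90 cochaperone, went from 14 and 5 to 26 and 15.

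By which of the 45 lists held a start peak, the genes most like ESR1 were ANXA9, CD151 and CRACDL, each differing in 2 lists. For PGR they were SLC25A44, SRGAP3 and DTL, also differing in 2. ESR2 had the same lists as MISP3, TTL and ZNF579, and NR3C1 the same as BEND6, MRPL34 and MISP. Ties were ordered by the correlation of log2 peak numbers, and only the first genes are named. How many other genes share the same lists is not given.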

How the data were processed

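The authors aligned reads to hg19 with Bowtie, kept uniquely mapped reads and called peaks in each library with MACS2; the submitters' processing notes name Bowtie 1.1.2 and MACS2 2.1.0.20140616. In the 45 deposited lists each peak has a fold enrichment, a ratio over the local background. The authors' lists also hold −log10 q-value and −log10 p-value columns. The deposited score repeats the latter, multiplied by 10. The smallest deposited −log10 p-value was 10.0. The lists hold no read counts, so depth is unknown. Of 49 samples, 4 inputs without a list were not analysed here.

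Genes and starts came from GENCODE 44 on GRCh37. A peak was at a gene when 1 bp overlapped it or its 50 kb flanks, and at a start when within 250 bp of a coding start. Numbers of RNAPII peaks were compared as log2(number + 1), 2 libraries against 2, by an exact two-sided permutation test, and other pairs were described. Named regions were up to 5 sites per gene held by the most lists, the strongest peak of each protein in each line and the 2 strongest gained RNAPII regions, and motifs were searched in 200 bases around summits. The members and gene lists were chosen with earlier results of these data known, and some genes of these lists are not reported here. Alternatives were a fold enrichment of 10 or more, start windows of 1000 bp, starts of all transcripts, flanks of 100 kb or none, covered length, lists of equal length, and each RNAPII library left out. The scripts were tested on simulated data and used Python 3.11.15, numpy 2.4.6, pandas 2.3.3 and matplotlib 3.10.9.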

Additional observations from a re-analysis of the deposited data

Results flagged for a closer look

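Peak numbers moved in opposite directions in the 2 lines for 3 pairs of target and gene. This difference was not tested: each rests on 1 library per treatment and line. JUN peaks at ESR1 went from 3 to 7 with E2 in Ishikawa and from 11 to 2 in T-47D, a difference of 13 peaks between the changes. At equal list length the Ishikawa numbers were 3 and 2, and the T-47D numbers 10 and 2, so the opposite direction was not seen there. JUN peaks at PGR went from 0 to 1 and from 7 to 2, a difference of 6, and at equal length from 0 to 0 and from 7 to 2. TAF1 peaks at ESR2 went from 4 to 3 in Ishikawa and from 0 to 2 in T-47D, a difference of -3. At equal length they went from 4 to 3 and from 0 to 1.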

How the results depend on the processing

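Lists differ in length and their depth is unknown, and with 2 RNAPII libraries per treatment no p-value under 0.333 was possible. Of 112 alternative values, 87 kept their direction or stayed within 1.5 times the reported number, 23 moved and 2 lost or changed their sign. Both of the latter were RNAPII at NR3C1, where the difference fell to 0 or turned positive. Where a value moved, the cause was not tested. For RNAPII, the difference at NR3C1 was 0 at a fold enrichment of 10 or more, 0.047 without E2 replicate 2, -1.08 at equal list length and -1.73 by covered length. Leaving out 1 library gave -0.95 to 0.05 at NR3C1, 0.29 to 1.29 at ESR1, 0.32 to 1.00 at ESR2 and 0.48 to 2.42 at PGR. At PGR the other settings gave 1.45 to 3.22. With the replicate number as a replicate block the PGR difference was again 1.45, and the exact sign-flip permutation test gave p = 0.5, the smallest possible, at all 4 genes. The deviations of replicate 1 from the treatment means correlated at r = 0.585 over 16803 genes, which are not independent replicates, and with 2 pairs the numbers were not taken as pairs.

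At a fold enrichment of 10 or more, Ishikawa lists with a start peak fell from 10 to 4 at ESR1 and from 7 to 4 at ESR2. Targets with more peaks under E2 in Ishikawa went from 3 to 0 at ESR2 and from 2 to 1 at PGR, and in T-47D from 5 to 1 at ESR2, 2 to 1 at PGR and 0 to 1 at NR3C1. Targets with more peaks in T-47D than in Ishikawa went from 1 to 3 at ESR1, 2 to 1 at ESR2 and 5 to 3 at PGR. With 1000 bp windows, T-47D lists with an ESR2 start peak went from 6 to 11. With the gene body alone, targets with more peaks under E2 were 3 at ESR2 in T-47D and 1 at PGR in Ishikawa, and those higher in T-47D were 1 at ESR2 and 2 at NR3C1. By covered length, Ishikawa gave 1 at ESR1 and T-47D gave 2 at NR3C1. At equal list length, Ishikawa gave 0 at ESR1, ESR2 and PGR and 2 at NR3C1, T-47D gave 1 at NR3C1, and ESR2 had 1 target higher in T-47D.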
